A study of Mus musculus with 2 samples.

Results

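The miR-200 and miR-141 family comprises 5 mouse miRNA hairpins, Mir200b, Mir200a, Mir429, Mir200c and Mir141. They were chosen by name among the 1174 hairpins with a miRNA name in GENCODE M21, and every tag that matched one of them perfectly over its whole length was counted, on both arms. Small RNA was sequenced from J1 mESCs, a mouse embryonic stem cell line grown with LIF at 1000 U/mL without feeder cells on gelatin. Cells received 1 μM PD0325901 (PD), an inhibitor of the kinase MEK, or DMSO as the control for 24 h. Each treatment gave 1 library of RNA pooled from 3 experiments, so there were no replicates. Tests and intervals below therefore cover the counting of reads only, compare 2 libraries rather than 2 treatments, and cannot show how cultures vary.

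The family is best known for holding cells in an epithelial state. Its miRNAs bind the mRNAs of Zeb1 and Zeb2, repressors of E-cadherin (Cdh1), and Zeb1 and Zeb2 in turn repress the genes of the family, so that loss of the miRNAs accompanies the epithelial-mesenchymal transition (EMT). Embryonic stem cells grow as E-cadherin-positive colonies, and gain of the family accompanies the reverse transition when fibroblasts are reprogrammed. A miRNA hairpin is cut into a 5p and a 3p strand, one of which usually enters Argonaute, and bases 2 to 8 of that strand, the seed, select the target mRNAs.

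The 3p strands carry the function of this family, and the most frequent tag of each is shown in the 5′ to 3′ direction with its seed in capitals, because one seed base divides the family. The miRNAs that share the seed AAUACUG were miR-200b-3p, miR-429-3p and miR-200c-3p.
miR-200b-3p: uAAUACUGccugguaaugaugac
miR-429-3p: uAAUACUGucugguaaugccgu
miR-200c-3p: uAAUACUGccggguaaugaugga
The seed AACACUG was that of miR-200a-3p and miR-141-3p.
miR-200a-3p: uAACACUGucugguaacgauguu
miR-141-3p: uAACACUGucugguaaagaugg
Counted from the 5′ end of the first-named miRNA over the bases compared, miR-200b-3p and miR-200c-3p differed by U11G and A22G, 2 of 22 bases. The seed mates miR-141-3p and miR-200a-3p also differed by 2 bases, A17C and G22U. Between the seed groups, miR-200a-3p and miR-200b-3p differed by C4U, U9C, C17U and U22A. Of these, C4U lies in the seed. No other detected miRNA had either seed. The 5p strand of Mir200b was the one passenger strand detected, and it has the seed AUCUUAC.
miR-200b-5p: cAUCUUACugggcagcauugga
The most frequent tag of each of the 10 arms began at the base given by RefSeq, so that the seeds were the annotated ones. The most frequent tag was the RefSeq sequence itself for 3 of 5 3p arms, and was 1 nt longer at the 3′ end for miR-200b-3p and miR-200a-3p.

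The hairpins lie in 2 clusters, given here in GRCm38 coordinates from GENCODE M21. Mir200b (chr4:156055681-156055750), Mir200a (chr4:156054896-156054985) and Mir429 (chr4:156053905-156053987) lie within 1846 nt on the minus strand of chromosome 4. All 3 sit in introns of Ttll10, a protein-coding gene of the same strand, and also within the noncoding gene Gm13648, where Mir200b and Mir200a are intronic and Mir429 is exonic. Mir200c (chr6:124718322-124718390) and Mir141 (chr6:124717914-124717985) lie within 477 nt on the minus strand of chromosome 6. Both are in an intron of Gm15884, a noncoding gene on the same strand, and Mir141 overlaps in part an exon of Gm29008, a gene model of the annotation's class TEC. The protein-coding genes nearest to this cluster are Phb2, 963 nt away, and Ptpn6, 2316 nt away.

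As an illustration of what the 2 seeds recognize, the 3′ UTR of Zeb2 (transcript Zeb2-212, 4941 nt, exon 11, minus strand of chromosome 2) was searched on the mRNA strand for the exact complements of bases 2 to 8. CAGTATT, the complement of AAUACUG, occurred 5 times and CAGTGTT, the complement of AACACUG, occurred 4 times. A pair of neighbouring matches of each kind is shown, with the match in capitals and 8 bases on either side.
AAUACUG match 1 (chr2:44988166-44988188): ccatacatCAGTATTttattatt
AAUACUG match 2 (chr2:44988101-44988123): cagtgcatCAGTATTacgattcc
AACACUG match 1 (chr2:44987818-44987840): tccttgtaCAGTGTTcagagggt
AACACUG match 2 (chr2:44987777-44987799): accagcttCAGTGTTaagctcac
Of 20987 genes with a 3′ UTR, 13.2% had at least 1 CAGTATT and 17.1% at least 1 CAGTGTT in their longest one. Among the 1334 whose 3′ UTR was within 25% of the length of that of Zeb2, the shares were 36.1% and 49.6%, and 3 and 19 of them had as many matches as Zeb2 or more. Zeb2 itself is counted among these genes. The match is a description of the sequence, and the mRNA of Zeb2 was not measured in these small RNA libraries.

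The family was a minor part of the small RNA of these cells. The DMSO library held 18870345 clean reads, of which 2180916 (11.6%) matched a miRNA hairpin, and the PD library held 20944808, of which 2111203 (10.1%) did. Clean reads of 20 to 24 nt, the size class of miRNAs, were 63.0% of the DMSO and 52.0% of the PD library. The family had 2606 reads in DMSO and 2747 in PD, which were 0.119% and 0.130% of the miRNA reads. Levels are given as RPM, reads of a miRNA per 1000000 clean reads. Detection required 1 RPM in the DMSO or the PD library, and 519 miRNAs reached it.

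Among the members, 6 of 10 arms were detected, namely the 5 3p arms and miR-200b-5p. miR-200a-3p had 917 reads (48.6 RPM, 95% interval 45.5 to 51.8) in DMSO and 841 reads (40.2 RPM, 37.5 to 43.0) in PD. miR-200b-3p had 738 reads (39.1 RPM, 36.3 to 42.0) in DMSO and 845 reads (40.3 RPM, 37.7 to 43.2) in PD. These 2 miRNAs of chromosome 4, one from each seed group, were the most abundant members in both libraries. They ranked 140 and 154 among the 519 miRNAs in DMSO, and 146 and 145 in PD. miR-200c-3p, the main product of chromosome 6, had 389 reads (20.6 RPM, 18.6 to 22.8) in DMSO and 398 (19.0 RPM, 17.2 to 20.96) in PD. miR-429-3p, from the same cluster as miR-200b-3p and with the same seed, had 327 reads (17.3 RPM, 15.5 to 19.3) in DMSO and 362 (17.3 RPM, 15.6 to 19.2) in PD. The passenger strand miR-200b-5p followed with 195 reads (10.3 RPM, 8.93 to 11.9) in DMSO and 272 (12.99 RPM, 11.5 to 14.6) in PD. miR-141-3p, the seed mate of miR-200a-3p, was close to the limit of detection, with 19 reads (1.01 RPM, 0.606 to 1.57) in DMSO and 15 (0.716 RPM, 0.401 to 1.18) in PD. These are exact Poisson intervals of the read counts.

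The remaining 4 arms, all passenger strands, were below 1 RPM in both libraries. miR-200a-5p had 17 reads (0.901 RPM) in DMSO and 12 (0.573 RPM) in PD, a fold change of 0.636 with an interval of 0.277 to 1.41 that spans 1. miR-141-5p had 3 reads in DMSO and 0 in PD, miR-200c-5p 1 and 0, and miR-429-5p 0 and 2. All of these lie at or under 3 reads, which is 0.159 RPM in DMSO and 0.143 RPM in PD, the level that a count of 0 still allows, and no fold change is given for them.

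**Figure D1:**
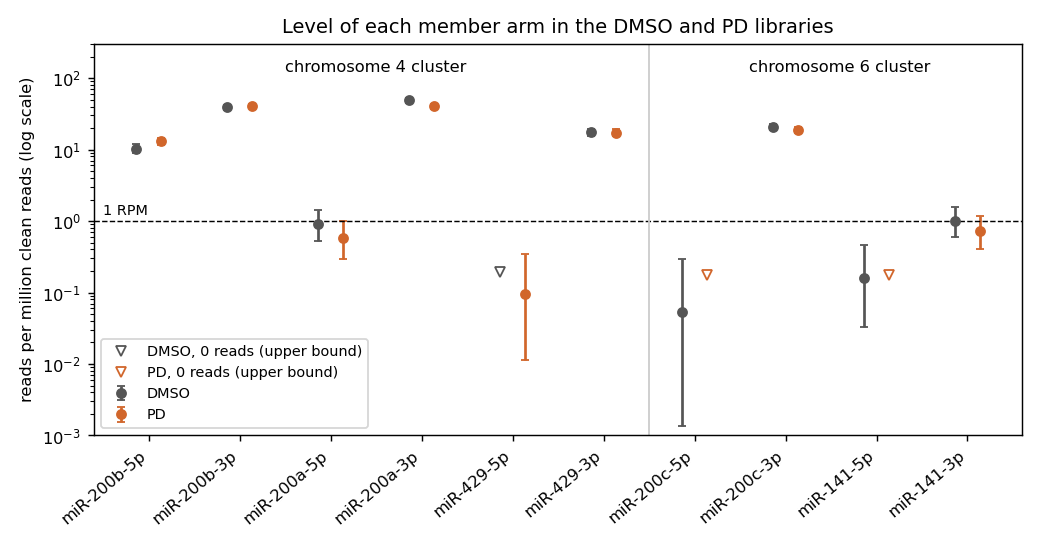
Level of each of the 10 member arms (horizontal axis) in RPM on a log scale, in the DMSO (grey) and PD (orange) library. Bars are 95% exact Poisson intervals of the counts, open triangles mark 0 reads at the upper bound, the dashed line is the detection limit of 1 RPM, and the 2 libraries lie close together at every detected arm, from 48.6 and 40.2 RPM for miR-200a-3p to 1.01 and 0.716 RPM for miR-141-3p.

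The order of the members was tested between neighbours within each library by a 2-sided exact binomial test of their reads, adjusted over 8 pairs in DMSO and 7 in PD. The pairs were ranked by the same reads, and no test compared the order in DMSO with that in PD. In DMSO, miR-200a-3p exceeded miR-200b-3p (exact test, adjusted p = 2.38e-05) and miR-200c-3p exceeded miR-429-3p (exact test, adjusted p = 0.0301). In PD, neither neighbouring pair differed beyond counting error. There miR-200b-3p stood at 845 reads and miR-200a-3p at 841 (exact test, adjusted p = 0.942), and miR-200c-3p at 398 and miR-429-3p at 362 (exact test, adjusted p = 0.286). miR-200b-5p was below miR-429-3p and above miR-141-3p in both libraries, and miR-141-3p and miR-200a-5p did not differ beyond counting error in either. Differences in how well each end ligates to an adapter also enter an order between miRNAs, and were not tested.

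Hairpins of one cluster were read at different levels. Mir200b, Mir200a and Mir429 gave 933, 934 and 327 reads in DMSO, and 1117, 853 and 364 in PD. On chromosome 6 the gap was wider, with 390 reads of Mir200c and 30 of Mir141 in DMSO, and 398 and 24 in PD. The chromosome 4 cluster held 84.2% of the family's reads in DMSO (Wilson 95% interval 82.7 to 85.5) and 85.0% in PD (83.6 to 86.2).

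No detected member arm changed by 1.5-fold, the threshold for a call. Of all 519 detected miRNAs 19.8% did, 6.17% upwards and 13.7% downwards. With 6 detected arms, the absence of a call is not read as a difference from that share. miR-200a-3p was lower in PD, at a fold change of 0.826 (0.752 to 0.908, exact binomial test with Benjamini-Hochberg adjustment over the 519 miRNAs, adjusted p = 0.000241). It was 0.881 (exact test, adjusted p = 0.0318) with tags of at least 21 nt, and 0.905 (exact test, adjusted p = 0.12) with its most frequent tag alone. miR-200b-5p was higher, at a fold change of 1.26 (1.04 to 1.52, exact test, adjusted p = 0.0377), and with as many PD reads drawn as the DMSO library held it was 1.246 (exact test, adjusted p = 0.0554), no longer past the threshold. These were the only 2 of the 6 detected arms with an adjusted p under 0.05, which 45.3% of all detected miRNAs had, 9.25% of them all with a higher and 36% with a lower level in PD. The fold change of miR-200b-3p was 1.03 (0.934 to 1.14), that of miR-429-3p 0.997 (0.856 to 1.16), that of miR-200c-3p 0.922 (0.7996 to 1.06) and that of miR-141-3p 0.711 (0.336 to 1.48). Each of these 4 intervals spans 1, and for the first 3 the interval lies within 1.5-fold either way, which for miR-141-3p it does not. The median fold change of the 6 arms was 0.959, against 0.888 over all detected miRNAs, and 4 of 6 were lower in PD, against 67.6% of all.

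**Figure D2:**
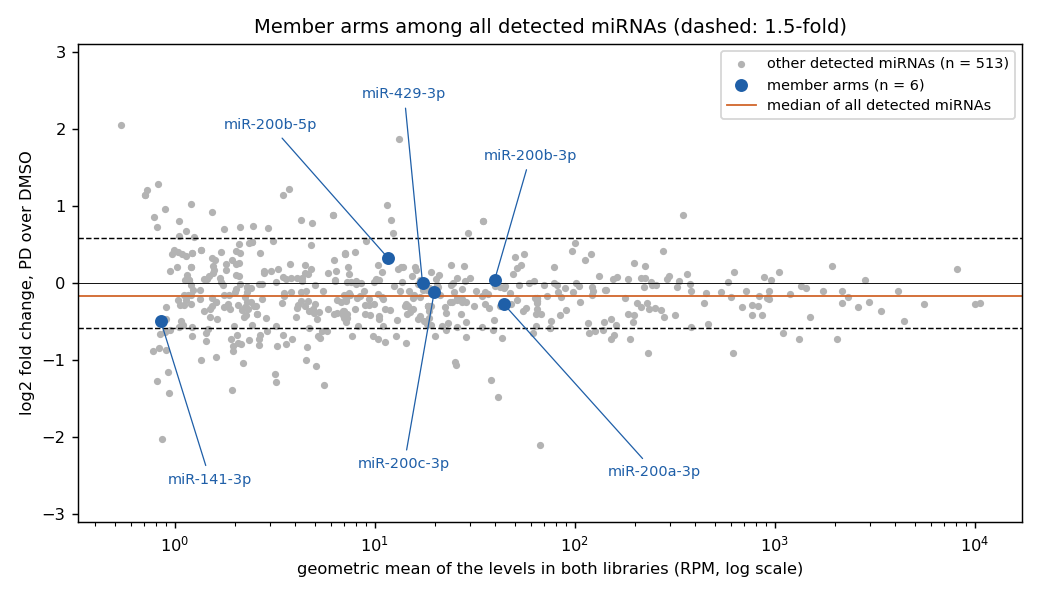
Log2 fold change of PD over DMSO (vertical axis) against the geometric mean of the levels in the 2 libraries (horizontal axis, RPM, log scale) for 519 detected miRNAs, with the 6 detected member arms in blue. The member arms lie between the dashed 1.5-fold lines, from -0.49 for miR-141-3p to 0.33 for miR-200b-5p, and the orange line is the median of all detected miRNAs at -0.17.

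The directions depend on the quantity the reads are divided by. The share of miRNA reads among clean reads was lower in PD, and the median log2 fold change of all 519 miRNAs was -0.17 per clean read, 0.03 per miRNA read, 0.11 per clean read of 20 to 24 nt, -0.01 with the TMM factors of edgeR and 0.00 with the size factors of DESeq2. Of all called miRNAs, 68.9% were lower in PD per clean read, and 36.6%, 26.4%, 44.2% and 42.5% in the same order of the others. For miR-200a-3p the fold change was 0.947, 1.00, 0.925 and 0.930 under these 4 denominators, and none was past an adjusted p of 0.05. For miR-200b-3p it was 1.18, 1.249, 1.155 and 1.16, each with an adjusted p under 0.05 (exact test, 0.00302, 4.54e-05, 0.0139 and 0.00964). miR-200b-5p was higher in PD under every denominator, and per clean read of 20 to 24 nt it passed 1.5-fold as 1 of the 6 detected arms, against 16.8% of all detected miRNAs. miR-429-3p and miR-200c-3p turned from just below to just above the DMSO level under all 4, to between 1.12 and 1.21 and between 1.03 and 1.12.

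**Figure D3:**
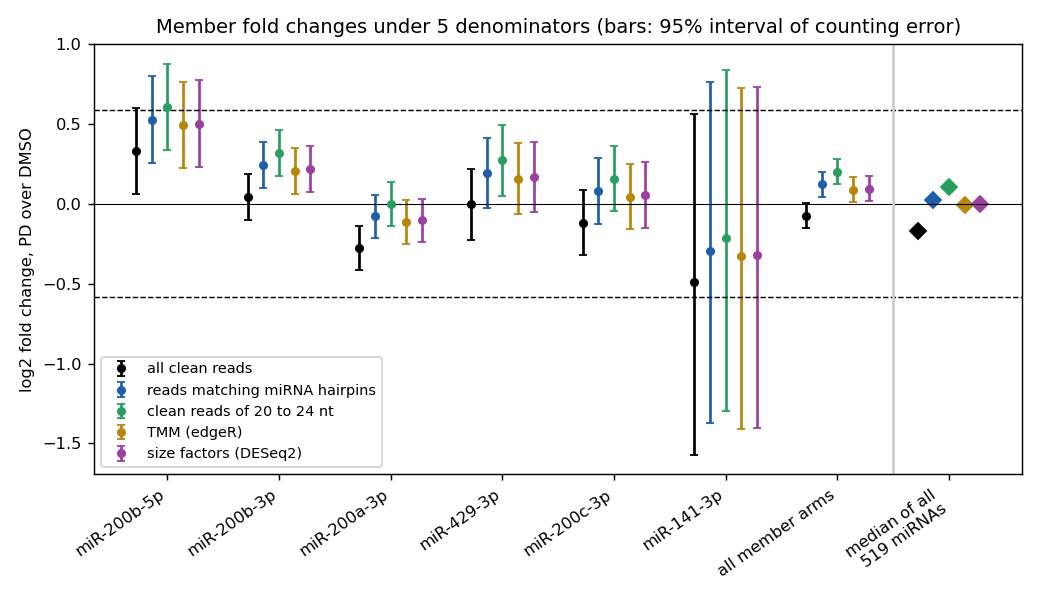
Log2 fold change of PD over DMSO (vertical axis) of the 6 detected member arms and of their sum with the undetected arms, under 5 denominators shown by colour, with 95% intervals of counting error; diamonds on the right are the medians of all 519 miRNAs and dashed lines mark 1.5-fold. Every member shifts up together from the black points (per clean read), miR-200a-3p from a fold change of 0.826 to between 0.925 and 1.00, while the spacing between members stays the same.

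Sums over the members were compared with p-values adjusted over 5 sums. The whole family stood at 138 RPM in DMSO and 131 RPM in PD, a fold change of 0.9497 (0.8998 to 1.002, exact test, adjusted p = 0.152), but it was higher in PD under the other 4 denominators, at 1.09, 1.15, 1.06 and 1.07 (exact test, adjusted p = 0.00319, 7.71e-07, 0.0431 and 0.024). The chromosome 4 cluster stood at 116 and 111 RPM (0.958, 0.904 to 1.02, exact test, adjusted p = 0.197) and the chromosome 6 cluster at 21.8 and 19.7 RPM (0.903, 0.786 to 1.04, exact test, adjusted p = 0.197), and both also turned above 1 under the other 4. There the adjusted p of the chromosome 4 cluster was 0.00319, 8.85e-07, 0.0431 and 0.024 (exact test), and that of the chromosome 6 cluster stayed above 0.05. The fold change of chromosome 4 over that of chromosome 6, which needs no denominator, was 1.06 (0.912 to 1.24, Fisher's exact test, p = 0.449). The 2 clusters were therefore not told apart in their fold change, with a ratio of more than 1.24-fold outside the interval.

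The seed groups were compared in the same way. The 3p reads with the seed AAUACUG stood at 77.1 RPM in DMSO and 76.6 RPM in PD (0.994, 0.926 to 1.07). Under the other 4 denominators this group was higher in PD, at 1.14, 1.204, 1.113 and 1.12 (exact test, adjusted p = 0.00149, 7.71e-07, 0.016 and 0.00933), so that its direction rests on the denominator. Those with the seed AACACUG stood at 49.6 and 40.9 RPM (0.824, 0.7501 to 0.905, exact test, adjusted p = 0.000212), almost all of them miR-200a-3p. The fold change of the first group over the second was 1.21 (1.07 to 1.36, Fisher's exact test, adjusted p = 0.00323 over 2 ratios). It was 1.12 (Fisher's exact test, adjusted p = 0.191) with the most frequent tag of each arm alone. With tags of at least 21 nt it was 1.15 (1.014 to 1.295, Fisher's exact test, adjusted p = 0.0541), an interval above 1. In both settings the adjusted p was no longer past the threshold. The 21-nt cut keeps the tags of miR-200a-3p that end 2 nt early, and the AACACUG group was then 0.877 (exact test, adjusted p = 0.0407). Without Mir200b the ratio of the seed groups was 1.16 (Fisher's exact test, adjusted p = 0.0700).

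Tags shortened at the 3′ end took a larger share of some members in DMSO than in PD. A tag was counted as short when it ended at least 2 nt before the end of the arm's most frequent tag. For miR-200a-3p, short tags were 123 of 917 reads (13.4%, Wilson interval 11.4 to 15.8) in DMSO and 54 of 841 (6.42%, 4.95 to 8.28) in PD. The abundant one is 3 nt shorter than the full tag, keeps the seed and lacks the last bases of the 3′ end.
miR-200a-3p, 20-nt tag: uAACACUGucugguaacgau
It had 102 reads in DMSO and 47 in PD, a fold change of 0.415 (0.287 to 0.592), whereas the full 23-nt tag had 687 and 690 reads, a fold change of 0.905 (0.813 to 1.01). Short tags of miR-200c-3p were 28 of 389 reads (7.20%, 5.03 to 10.2) in DMSO and 10 of 398 (2.51%, 1.37 to 4.56) in PD, and those of miR-200b-5p 12.8% (8.84 to 18.2) and 5.51% (3.37 to 8.90). The intervals of DMSO and PD did not overlap for miR-200a-3p and miR-200c-3p, 2 of the 5 arms, as was the case with the lower share in PD for 34% of 312 miRNAs with at least 100 reads in both libraries. In contrast, miR-200b-3p had 2.44% and 2.49%, and miR-429-3p 3.36% and 2.76%, with intervals that overlapped widely. Over the 5 3p arms together, short tags were 7.57% (6.58 to 8.70) in DMSO and 3.86% (3.17 to 4.70) in PD. The same direction ran through the whole library. Among the 312 miRNAs, the median share of short tags was 5.43% in DMSO and 3.34% in PD, and 251 of them (80.4%) had the lower share in PD, against 4 of 5 member arms in this set.

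**Figure D4:**
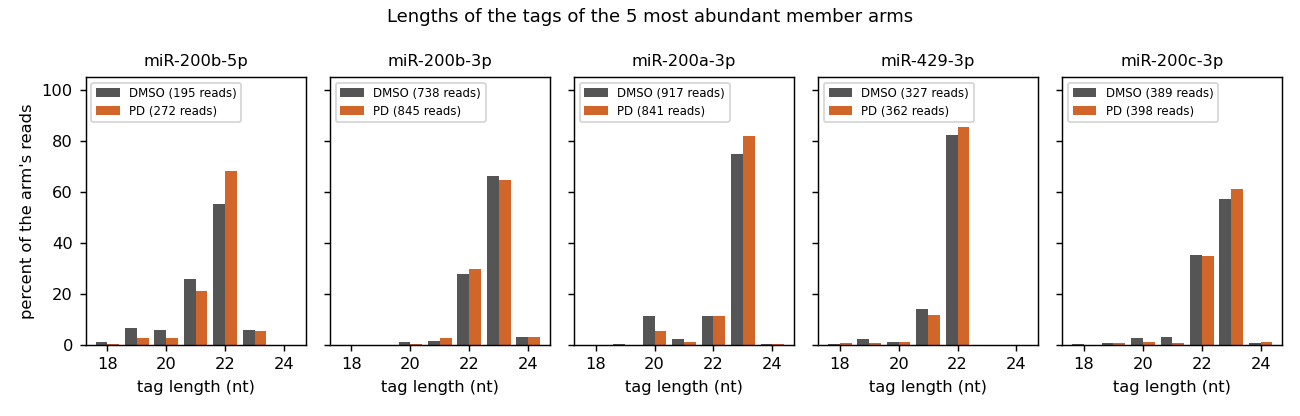
Percent of each arm's reads (vertical axis) by tag length in nt (horizontal axis) for the 5 most abundant member arms, in DMSO (grey) and PD (orange). The bars at 20 nt of miR-200a-3p, 102 reads in DMSO and 47 in PD, are the clearest difference, and miR-200b-3p looks alike in both libraries.

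The 5′ ends were more uniform than the 3′ ends. The tags that began at the first base of the most frequent tag were 98.4% of miR-200a-3p, 99.1% of miR-200b-3p, 99.4% of miR-429-3p and 96.9% of miR-200c-3p in DMSO, and 99.2%, 99.2%, 99.4% and 98.0% in PD. The seeds of these 4 guide strands were thus the same in nearly every read. miR-141-3p, with few reads, had 17 of 19 (89.5%, 68.6 to 97.1) in DMSO and 12 of 15 (80.0%, 54.8 to 93.0) in PD. miR-200b-5p was less exact than the 4 abundant guide strands, at 89.2% and 89.3%, with 21 of 195 reads in DMSO and 29 of 272 in PD starting 1 nt later, a start that gives another seed.

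The balance of the 2 strands differed strongly among the hairpins. The 5p strand made up 20.9% (18.4 to 23.6) of the arm reads of Mir200b in DMSO and 24.4% (21.9 to 26.9) in PD, but 1.82% (1.14 to 2.90) and 1.41% (0.807 to 2.44) of those of Mir200a. In Mir429 it was 0 of 327 reads in DMSO and 2 of 364 in PD, and in Mir200c 1 of 390 and 0 of 398. In Mir141 it was 3 of 22 reads (13.6%, 4.75 to 33.3) in DMSO, an interval that overlaps that of Mir200b. In PD it was 0 of 15 (0 to 20.4), an interval below that of Mir200b, though on few reads. Shares were not tested between hairpins. Mir200b was the one hairpin whose second strand was detected. The ratio of 5p to 3p reads of Mir200b was 1.22-fold higher in PD (0.984 to 1.51, Fisher's exact test, p = 0.0645, adjusted p = 0.322 over 5 hairpins). Counted on the most frequent tags alone, it was 1.57-fold higher (1.18 to 2.09, Fisher's exact test, adjusted p = 0.00796), with 99 and 173 reads of the 22-nt tag of miR-200b-5p beside 487 and 543 of that of miR-200b-3p. That 22-nt tag was 50.8% of miR-200b-5p in DMSO and 63.6% in PD, so this count mixes tag length with strand balance. With tags of at least 21 nt the ratio was 1.318-fold higher (1.055 to 1.651, Fisher's exact test, adjusted p = 0.06745).

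Mir141 also gave tags of another kind. Of its 30 reads in DMSO and 24 in PD, 8 and 9 came from neither arm but from the loop between them, the piece left over when Dicer releases the 2 strands. They began at position 28 of the hairpin and ended at position 45, 46 or 47, directly before miR-141-3p, which begins at position 48. The most frequent of these tags had 4 reads in DMSO and 5 in PD, and it matched no other named hairpin.
Mir141 loop: ugguugaaguaugaagcucc
The loops of the other 4 hairpins, 14 to 19 nt long between the most frequent tags, had no tag in either library, and pieces shorter than 18 nt had been removed from the data.

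**Figure D5:**
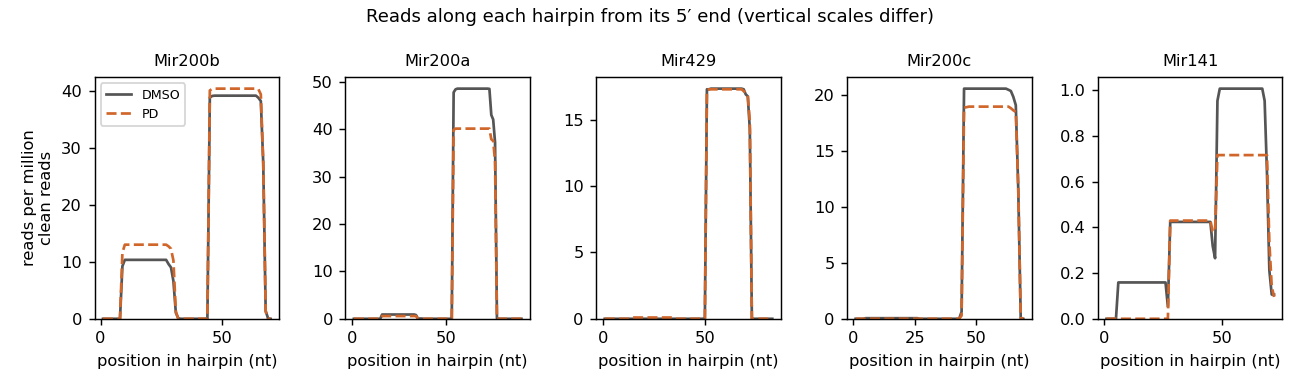
RPM covering each position (vertical axes, of different scale) along the 5 hairpins from their 5′ end (horizontal axis, nt) in DMSO (solid grey) and PD (dashed orange). A 5p and a 3p block are seen in Mir200b, a single 3p block dominates Mir200a, Mir429 and Mir200c, and Mir141 has a middle block of loop tags at 0.424 and 0.430 RPM.

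Other miRNAs of the EMT network were set beside the family as a list of 8 hairpins. These were Mir205, an epithelial miRNA that also represses Zeb1 and Zeb2, Mir203, the co-transcribed Mir183, Mir96 and Mir182, and the p53 targets Mir34a, Mir34b and Mir34c, which repress Snai1. Of their 16 arms 14 were detected and none changed by 1.5-fold per clean read, against 19.8% of all detected miRNAs. miR-96-3p, with 33 and 52 reads, did under each of the other 4 denominators, where 14.8% to 16.8% of all detected miRNAs did. miR-182-5p, the most abundant, had 18969 reads in DMSO and 23149 in PD, a fold change of 1.10 (1.08 to 1.12, exact test, adjusted p = 2.37e-21). miR-34c-5p had 8904 and 9007 reads, a fold change of 0.911 (0.885 to 0.939, exact test, adjusted p = 2.98e-09). miR-205-5p, closest to the family in its targets, had 135 and 113 reads, a fold change of 0.754 (0.582 to 0.976, exact test, adjusted p = 0.0647). The other 11 detected arms also had an adjusted p above 0.05, so that 2 of 14 were under it, against 45.3% of all detected miRNAs. The median fold change of the list was 0.937, against 0.888 over all detected miRNAs. In PD, 9 of its arms were lower and 5 higher, and 67.6% of all detected miRNAs were lower.

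The miRNAs whose fold change was nearest to that of the family sum were miR-466b-3p (0.948), miR-872-3p (0.953), miR-15a-5p (0.945), miR-466-3p (0.955) and miR-184-3p (0.955). Likeness was the distance in log2 fold change over the 2 libraries, among 322 miRNAs with at least 100 reads in DMSO, 80 of which lay within 0.1 of the family.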

How the data were processed

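The authors trimmed adapters, discarded reads of low quality, contaminants and reads below 18 nt, and merged equal sequences into tags. The deposited value of a tag is its raw count of clean reads, neither aligned nor normalized. The labels name the build mm9, which was not used here. Tags were matched to GENCODE M21 hairpins (GRCm38), and RefSeq miRNA sequences (GRCm38.p6) were matched for all 10 arms. The study used miRBase, which was not used here. Hairpins were folded with ViennaRNA 2.7.2. A tag was counted for an arm when it overlapped that arm's most frequent tag by at least 16 nt. Copies of a hairpin with the same name, arm and most frequent tag were 1 miRNA, and no member tag matched another named hairpin. Outside the family, miRNAs of different name that share tags, such as miR-199a-3p and miR-199b-3p, were each counted in full. Shares and ranks over all detected miRNAs therefore count such reads more than once.

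RPM, fold changes, exact binomial and Fisher's exact tests, Benjamini-Hochberg adjustment, exact Poisson (levels), Clopper-Pearson (fold changes) and Wilson (shares) 95% intervals were computed with Python 3.11.15, numpy 2.4.6 and SciPy 1.17.1 and checked on simulated data. Reads from PCR without molecular identifiers are not independent molecules, so intervals cover counting error only. With 1 library per treatment, neither edgeR's quasi-likelihood model nor the DESeq2 model could be fitted. edgeR 4.0.16 and DESeq2 1.42.0 in R 4.3.3 gave scaling factors, and the exact test of edgeR was run with an assumed BCV of 0.1 and 0.2. Figures were drawn with matplotlib 3.10.9. Alternatives varied the tags counted, the denominator, the depth, the filter, the fold threshold and the hairpins included.

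The genes named were every arm of the 5 members, both arms of the EMT-network list, and the 5 other miRNAs with at least 100 reads in DMSO whose log2 fold change was nearest to that of the family sum. Members and lists were chosen with earlier results of these data known. The search of the Zeb2 3′ UTR and the account of the Mir141 loop were added after the data were seen.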

Additional observations from a re-analysis of the deposited data

How the results depend on the processing

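No paired analysis was possible because each treatment has 1 library. Of the values under the alternatives run, 41 changed direction, of which 13 also gained an adjusted p under 0.05 and 1 lost it. With their direction kept, 18 lost it, 19 gained it or a call and 1 value with no test moved, and the others kept both. The cause was not tested unless the construction of an alternative shows it.

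A different denominator shifts every fold change by one factor, and under all 4 the family sum, the chromosome 4 cluster and the AAUACUG group were higher in PD with an adjusted p under 0.05. Per miRNA read, the family sum was 1.09, the chromosome 4 cluster 1.10, the chromosome 6 cluster 1.04, the AAUACUG group 1.14, the AACACUG group 0.945, miR-429-3p 1.14 and miR-200c-3p 1.06. Per clean read of 20 to 24 nt, they were 1.150, 1.161, 1.09, 1.204, 0.998, 1.21 and 1.12, miR-429-3p had an adjusted p of 0.0375 (exact test), miR-200a-3p was 1.00 and 1 member arm, miR-200b-5p, passed 1.5-fold. With TMM they were 1.06, 1.07, 1.01, 1.11, 0.922, 1.12 and 1.03, and with the size factors of DESeq2 1.07, 1.08, 1.02, 1.12, 0.928, 1.12 and 1.04. Under these 4 denominators 1 of 14 arms of the EMT list, miR-96-3p, was called, against 14.8% to 16.8% of all detected miRNAs.

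With tags identical to the most frequent one, 1 of 5 detected member arms (miR-200b-5p) and 1 of 12 EMT arms (miR-34a-3p) were called. The share of all miRNAs called was not counted for this or the other choices of tags. The chromosome 4 cluster was then 1.001, the AAUACUG group 1.014, the AACACUG group 0.902, the seed ratio 1.124, miR-429-3p 1.039, miR-200c-3p 1.005 and the 5p to 3p ratio of Mir200b 1.57. With tags of at least 21 nt, the AAUACUG group was 1.005, the seed ratio 1.146, miR-429-3p 1.007, and 1 of 14 EMT arms (miR-96-3p) was called. With tags at least 2 mismatches from every other member, which leaves out most short tags, the AAUACUG group was 1.006, the AACACUG group 0.896, the seed ratio 1.122, miR-141-3p 1.126 and the difference in short 3p tags -0.157 percentage points instead of -3.71. With 1 mismatch allowed, the AAUACUG group was 1.001 and miR-429-3p 1.003. With the PD library downsampled, they were 1.007 and 1.018, and miR-200b-5p was 1.246 with an adjusted p of 0.0554 (exact test). The adjusted p of miR-200a-3p (exact test) was no longer under 0.05 with identical tags (0.905, adjusted p = 0.12). The same held with the tags at least 2 mismatches from other members (0.893, adjusted p = 0.0544). It stayed under 0.05 with tags of at least 21 nt (0.881, adjusted p = 0.0318), with the same first base (0.833, adjusted p = 0.000483) and with 1 mismatch allowed (0.832, adjusted p = 0.0003835).

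With no filter 4 of 10 member arms were past 1.5-fold, all of them passenger strands under 1 RPM. Of these, miR-429-5p, miR-200c-5p and miR-141-5p had 0 reads in 1 library. There 0.01 RPM was put in place of 0, so that theirs are not measured fold changes. With at least 10 reads in both libraries 1 of 7 was past 1.5-fold, miR-200a-5p. The share of all miRNAs past 1.5-fold was not counted under either filter. With 3p arms only, the family sum was 0.928 and the chromosome 4 cluster 0.931, both past an adjusted p of 0.05. Without Mir200b, the family sum was 0.878, the chromosome 4 cluster 0.870, the cluster ratio 0.963 and the seed ratio 1.16. Without Mir200a, the family sum was 1.021, the chromosome 4 cluster 1.059, the AACACUG group 0.711 and the seed ratio 1.40. Without Mir200c, the AAUACUG group was 1.021. In the exact test of edgeR with an assumed BCV of 0.1, the smallest adjusted p of a member arm was 0.507, for miR-200b-5p.

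Depth limits miR-141-3p, whose 15 to 19 reads give an interval of 0.336 to 1.48, and the 3 passenger strands at or under 3 reads, for which no change was detectable at this depth. With single libraries, the spread between cultures is unknown for every value.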

Other observations

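Tags of the members that match the hairpin from the usual first base and then carry 1 to 3 added bases at the 3′ end were counted apart, since they are not perfect matches. They added 16.9% (Wilson 95% interval 14.8 to 19.2) to 902 templated reads of miR-200a-3p in DMSO and 16.3% (14.1 to 18.7) to 834 in PD, given as shares of templated and tailed reads together. For miR-200b-3p the shares were 17.1% (14.8 to 19.8) and 17.1% (14.9 to 19.6), with tails of A (11.4% and 11.7%) above tails of U (4.42% and 4.06%). miR-200c-3p had 14.1% (11.2 to 17.7) in DMSO and 21.2% (17.8 to 25.03) in PD, intervals that do not overlap, as was so with the higher share in PD for 12.5% of 312 miRNAs with at least 100 reads in both libraries. Its A tails were 6.15% (4.26 to 8.80) and 11.7% (9.17 to 14.8). miR-429-3p had fewer tails, at 3.56% (2.05 to 6.12) and 7.22% (5.04 to 10.2). The median over these miRNAs was 6.77% in DMSO and 7.89% in PD. The 3 most abundant 3p arms of the family were thus tailed at more than the median share in both libraries, and miR-429-3p was not. The shares were not tested.

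Tags 1 base from another member were 123 of 917 reads of miR-200a-3p in DMSO and 54 of 841 in PD, the same numbers as its short tags, because a tag that ends before base 22 lacks one of the 2 bases that separate it from miR-141-3p.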
